A study of Mus musculus with 64 samples.

Results

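Cyr61, Ctgf, Adamts1, Thbs1 and Tiparp are genes of the early transcriptional response, and their transcript levels were followed in the nucleus accumbens (NAc) and prefrontal cortex (PFCx) of mice given 1 of 6 psychotropic drugs. The 5 genes were taken by symbol from 46785 genes in the deposited tables, where they have 12 of 112714 annotated transcripts. They were chosen with drug effects in these libraries known, so every drug difference given for them is a description without a test. The mice were adult male C57BL/6N animals, 8 to 10 weeks old, killed 2 h after a single intraperitoneal injection. Haloperidol was given at 1 mg/kg and risperidone at 0.5 mg/kg, both in saline with a drop of HCl. Methamphetamine at 2 mg/kg, venlafaxine at 16 mg/kg, mianserin at 20 mg/kg and ketamine at 20 mg/kg were given in saline, which served as the control. Haloperidol and risperidone are antipsychotics that block dopamine receptors, mianserin is a tetracyclic antidepressant that blocks noradrenaline, serotonin and histamine receptors, venlafaxine inhibits the reuptake of serotonin and noradrenaline, methamphetamine releases monoamines and ketamine blocks NMDA receptors. Each drug is represented by 4 libraries of ribosome-depleted RNA per tissue and saline by 8 libraries per tissue, 64 libraries in all. The labels number the libraries as replicates and do not say which mouse gave which library, so the errors and p-values measure the spread between these libraries.

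As background, Cyr61 and Ctgf encode secreted proteins of the CCN family, which sit in the extracellular matrix and bind integrins. Thbs1 encodes thrombospondin, a matrix glycoprotein that astrocytes secrete and that promotes the formation of synapses, and Adamts1 encodes a secreted metalloproteinase that cuts the chondroitin sulfate proteoglycans of the matrix. Tiparp encodes a mono-ADP-ribosyltransferase of the PARP family that is induced by, and represses, the aryl hydrocarbon receptor (AHR). Transcription of these genes can rise within an hour of a stimulus without new protein synthesis, through factors such as SRF, CREB and the YAP-TEAD pair, and in brain tissue blood vessels, astrocytes and neurons all contribute to their RNA. In RNA from whole tissue, fewer cells of a type and less RNA per cell cannot be told apart.

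The genes lie on 4 chromosomes of GRCm38 (mm10). Cyr61 (ENSMUSG00000028195, Ccn1 in current nomenclature) spans chr3:145646976-145649981 on the minus strand with 1 annotated transcript of 5 exons. Ctgf (ENSMUSG00000019997, now Ccn2) spans chr10:24595442-24598683 on the plus strand with 3 transcripts, Adamts1 (ENSMUSG00000022893) chr16:85793827-85803113 on the minus strand with 3, Thbs1 (ENSMUSG00000040152) chr2:118111876-118127133 on the plus strand with 2, and Tiparp (ENSMUSG00000034640) chr3:65528410-65555518 on the plus strand with 3. On the opposite strand Gm15270 overlaps Ctgf, Gm29233 overlaps Thbs1 and 4931440P22Rik overlaps the 5′ end of Tiparp, with mean levels of 0.703, 0.076 and 0.688 FPKM over all libraries. The sources used here do not say that the quantification used strand, so reads of these pairs cannot be told apart.

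Promoters are shown for Cyr61, Adamts1 and Tiparp only, because the promoter reference used here held no entry for Ctgf and Thbs1. The RefSeq sequences of GRCm38.p6 run from 250 bases before to 50 bases after the annotated start, 5′ to 3′ on the strand of the gene. Capitals mark the partial CRE motif TGACG, the TEAD motif GGAATG, the AHR core GCGTG and the TATA box TATAAA, each also searched as its reverse complement.
Cyr61, chr3:145649936-145650235, minus strand: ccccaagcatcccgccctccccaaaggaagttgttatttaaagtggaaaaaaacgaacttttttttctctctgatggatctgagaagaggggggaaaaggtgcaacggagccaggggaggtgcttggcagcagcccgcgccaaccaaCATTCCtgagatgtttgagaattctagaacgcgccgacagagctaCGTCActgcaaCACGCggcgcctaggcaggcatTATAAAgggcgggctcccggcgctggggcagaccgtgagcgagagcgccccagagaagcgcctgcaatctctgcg
Adamts1, chr16:85803064-85803363, minus strand: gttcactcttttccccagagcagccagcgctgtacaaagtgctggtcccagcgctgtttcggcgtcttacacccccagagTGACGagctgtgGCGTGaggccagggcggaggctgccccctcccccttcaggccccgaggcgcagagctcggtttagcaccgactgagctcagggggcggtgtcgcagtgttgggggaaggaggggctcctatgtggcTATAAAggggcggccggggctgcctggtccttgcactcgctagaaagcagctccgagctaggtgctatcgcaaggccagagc
Tiparp, chr3:65528197-65528496, plus strand: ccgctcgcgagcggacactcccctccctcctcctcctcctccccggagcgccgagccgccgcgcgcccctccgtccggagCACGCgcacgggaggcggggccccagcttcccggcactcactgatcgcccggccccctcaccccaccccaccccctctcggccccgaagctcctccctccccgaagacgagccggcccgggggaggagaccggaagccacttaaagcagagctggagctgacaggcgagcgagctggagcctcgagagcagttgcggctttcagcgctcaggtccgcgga
All 3 windows hold the AHR core, at positions -47 in Cyr61, -158 in Adamts1 and -170 in Tiparp, counted from the annotated start to the first base of the letters. The TATA box stands at -25 in Cyr61 and -32 in Adamts1, and the partial CRE motif at -58 and -170. The TEAD motif was found in Cyr61 alone, at -103, as its reverse complement. Among 32851 mouse promoters of this length, 32.4% hold the AHR core, 20.8% the partial CRE motif, 14.7% the TEAD motif and 13.6% the TATA box. None of the 3 windows holds the AP-1 motif TGANTCA, the partial glucocorticoid receptor motif AGAACA or the CArG box of SRF, which 7.81%, 19% and 1.63% of promoters hold. The windows have a GC content of 57%, 64.7% and 73.7% against a median of 52.7%. Matches of letters are descriptions, not binding sites.

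The values are FPKM, fragment density along a transcript corrected for library size, which the authors estimated with Cufflinks, and they were added over the transcripts of a gene. The median library held 2.39 gigabases of aligned sequence (range 1.52 to 3.26). The tables hold no counts, and behind a saline library stood between 0.366 and 3.34 kilobases of aligned sequence for Cyr61, between 0.697 and 3.86 for Thbs1, between 2.46 and 6.49 for Adamts1, between 3.63 and 27.4 for Tiparp and between 5.84 and 45.1 for Ctgf. Cyr61 and Thbs1 thus rest on few reads per library. The dissections carried the markers of their tissue: each of the 8 striatal spiny neuron markers had a higher mean in the NAc (Drd1, a dopamine receptor, 30.8 against 2.92 FPKM) and each of the 6 cortical projection neuron markers a higher mean in the PFCx (Slc17a7, the vesicular glutamate transporter of cortical neurons, 129.4 against 38.5). The labels divide saline into sets I and II, and by the number of NAc transcripts listed above 0 the drugs fall into the same 2 sample sets. In the PFCx these numbers overlapped, and the set of each drug was carried over from the NAc. The PFCx libraries of the sets so assigned did not overlap on the first principal component, which held 27.1% of the variance. Set I holds saline set I with haloperidol, risperidone and methamphetamine, and set II holds saline set II with mianserin, venlafaxine and ketamine. Set and drug are confounded, and so each drug is also given against the 4 saline libraries of its own set (the own saline set).

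The deposited read coverage shows that the scale of low FPKM values differs between these blocks of libraries. Coverage divided by the gigabases of the library equals FPKM where both follow the same reads. For transcripts of 0.3 to 1 FPKM in the 16 NAc libraries of set I, the median ratio of this quantity to FPKM lay between 0.983 and 0.989 per library. It lay between 0.719 and 0.831 in the NAc libraries of set II and between 0.674 and 0.8 in the PFCx. The median ratio for Cyr61 was 1.01 in the NAc libraries of set I and 0.687 in those of set II, and for Thbs1 it was 0.949 and 0.344. FPKM therefore exceeded the coverage of the weakest members outside the NAc libraries of set I, and values are given on both scales where the choice matters. The cause was not tested.

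Of the 60 combinations of gene, drug and tissue, 13 had all 4 drug libraries above all 8 saline libraries, and 0 had all 4 below. Tiparp accounted for 5 of them, Cyr61 for 4, Adamts1 for 3 and Ctgf for 1, and Thbs1 for 0. By treatment, mianserin accounted for 4 in the PFCx and 3 in the NAc, methamphetamine for 3 in the PFCx, risperidone for 1 in each tissue and haloperidol for 1 in the NAc, and venlafaxine and ketamine for 0. The same position was found in the NAc for 0.718% of all 37034 genes tested after haloperidol, 0.626% after risperidone, 1.18% after mianserin, 0.807% after venlafaxine, 0.381% after methamphetamine and 1.38% after ketamine. In the PFCx the shares were 0.562% after haloperidol, 0.794% after risperidone, 0.57% after mianserin, 0.159% after venlafaxine, 0.505% after methamphetamine and 0.2% after ketamine. The genes were chosen on these contrasts, so nothing is read from their count. Drugs of a tissue share their saline libraries.

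**Figure D1:**
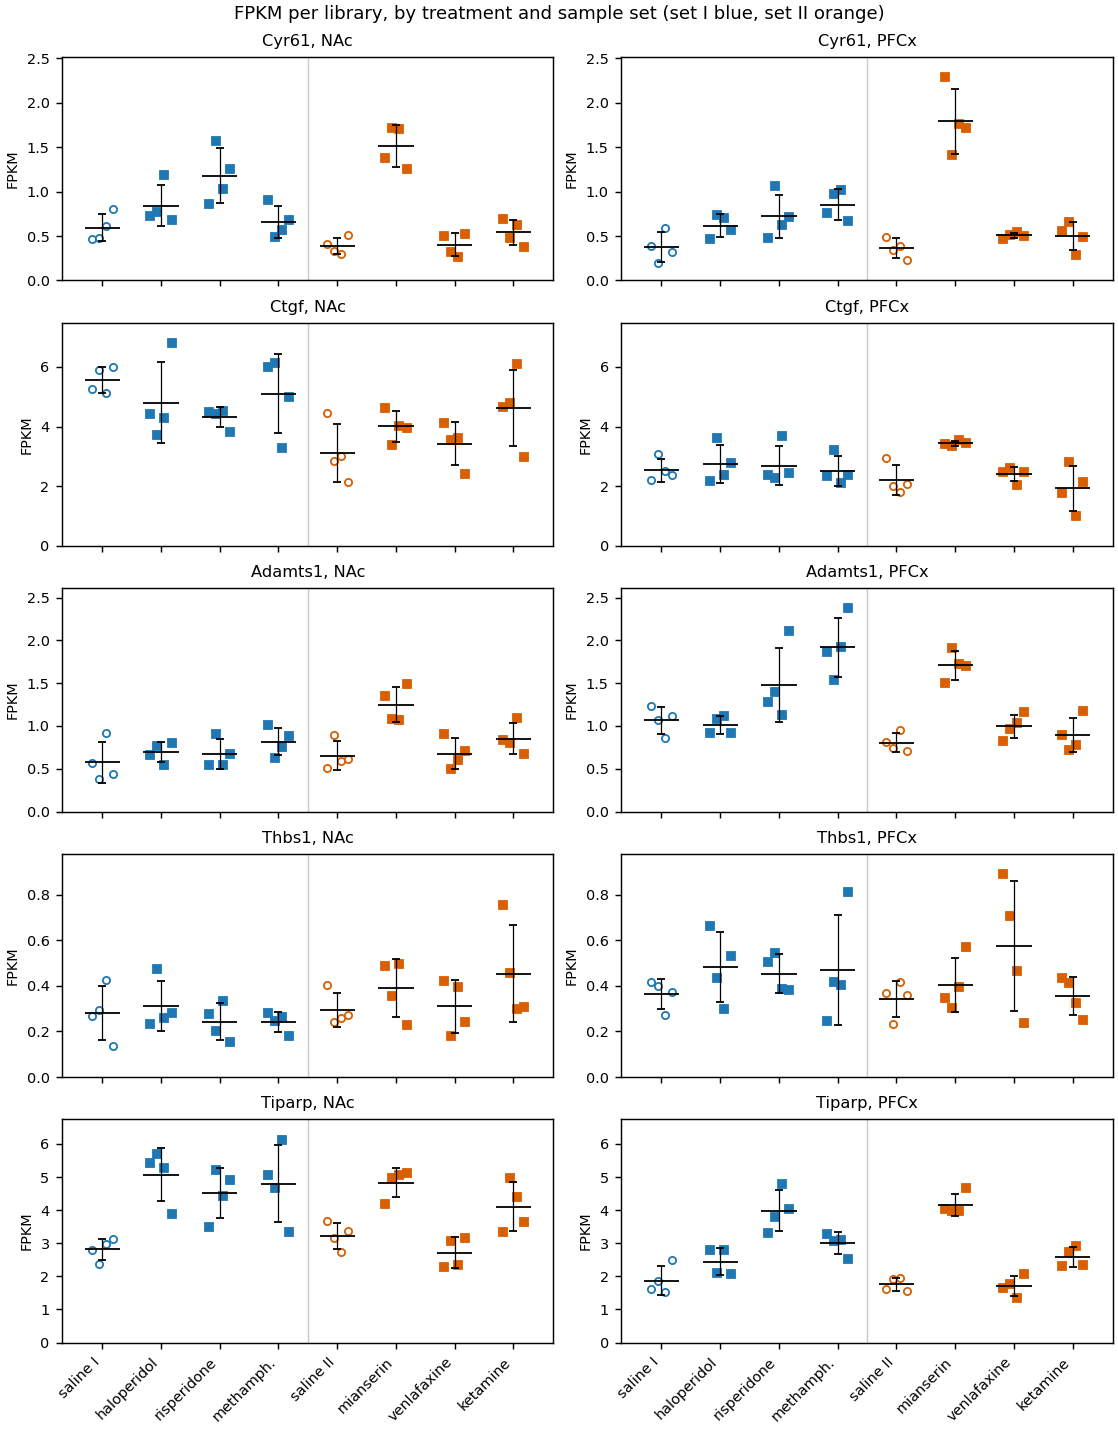
FPKM (vertical axes, linear from 0) of the 5 genes in each of the 64 libraries, by treatment, with NAc in the left and PFCx in the right column. Circles are saline and squares drug libraries, blue is sample set I and orange set II, and black lines show the mean and SD of 4 libraries. Cyr61 after mianserin lies between 1.41 and 2.29 in the PFCx, above every saline library.

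Cyr61 showed the largest relative differences of the 5 genes, after mianserin in both tissues. In the NAc its level in the 8 saline libraries ran from 0.302 to 0.799 FPKM with a median of 0.476, and in the 4 mianserin libraries it was 1.38, 1.72, 1.71 and 1.25. In the PFCx saline ran from 0.199 to 0.595 with a median of 0.366, and mianserin libraries had 2.29, 1.41, 1.76 and 1.72. The groups did not overlap in either tissue. The mean after mianserin was 3.09 times that of all saline libraries in the NAc and 4.86 times in the PFCx, with differences of 0.76 ± 0.09 and 1.03 ± 0.09 on the log2(FPKM + 1) scale (± SE of the limma fit, n = 4 and 8), a scale that understates the change of low genes. Against saline set II alone the ratios were 3.91 and 4.95. On coverage per gigabase they were larger, 6.45 in the NAc and 8.52 in the PFCx, as the saline libraries of set II stood at 0.22 ± 0.079 and 0.188 ± 0.0802 (SD, n = 4) and those of mianserin at 1.42 ± 0.233 and 1.60 ± 0.258.

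After risperidone and after methamphetamine, Cyr61 lay above saline in 1 tissue each. After risperidone, the NAc libraries had 0.863, 1.57, 1.03 and 1.26 FPKM, all above the highest saline library, while those of the PFCx had 0.483, 1.06, 0.626 and 0.717, of which 3 exceeded it. After methamphetamine the pattern was the reverse, with 0.902, 0.485, 0.572 and 0.677 in the NAc, where 1 library exceeded saline, and 0.754, 0.977, 1.02 and 0.664 in the PFCx, where all 4 did. The mean ratios to all saline libraries were 2.41 and 1.95 for risperidone and 1.35 and 2.32 for methamphetamine, in the NAc and PFCx. Haloperidol gave 1.72 and 1.67, with 1 library above saline in the NAc and 2 in the PFCx. Venlafaxine and ketamine gave ratios between 0.824 and 1.37, and their libraries overlapped saline in both tissues.

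Beside the mianserin values of Cyr61, the summed markers of vessel cells overlapped those of saline set II. The summed level of the 8 endothelial markers ran from 26.9 to 29.4 FPKM in the NAc after mianserin and from 28.0 to 33.0 in saline set II, and from 24.9 to 29.1 and 26.6 to 33.0 in the PFCx. For the 8 mural markers the ranges were 21.4 to 24.1 against 19.9 to 24.8 in the NAc and 20.7 to 24.5 against 19.5 to 25.0 in the PFCx. The 5 fibroblast and meningeal markers summed to 3.60 to 3.90 against 3.64 to 4.27 in the NAc and 3.78 to 5.43 against 5.0 to 7.27 in the PFCx. The 6 microglial markers did not overlap in the PFCx, where they summed to 21.9 to 25.9 after mianserin, 26.2 to 28.6 in saline set II and 26.1 to 30.7 in saline set I, while in the NAc mianserin (26.1 to 33.6) overlapped saline set II (27.8 to 31.1). This was not particular to mianserin. After venlafaxine in the PFCx, where Cyr61 overlapped saline, they summed to 21.95 to 26.06, also below both saline sets. The 6 oligodendrocyte markers in the PFCx ran from 184.2 to 213.8 after mianserin and from 145.5 to 200.8 in saline set II. The part of these cells in the mianserin values was not tested. No marker of these 5 lists was at 0 in any library.

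Ctgf, the other CCN gene, lay above saline only after mianserin in the PFCx. There its 4 libraries had 3.41, 3.35, 3.55 and 3.46 FPKM, close to each other, while saline ran from 1.81 to 3.08 with a median of 2.28. The ratio of the means was 1.45, or 1.55 against saline set II, and the difference 0.40 ± 0.17 on the log2(FPKM + 1) scale. In the NAc the mianserin libraries, between 3.40 and 4.64, lay inside the saline range of 2.16 to 5.98. Between all saline libraries and the own saline set as the control, the sign of the NAc difference changed for every drug but ketamine. Haloperidol, for example, differed by 0.15 ± 0.17 from all saline libraries and by -0.20 ± 0.17 from saline set I, and mianserin by -0.05 ± 0.17 and, from saline set II, 0.30 ± 0.17. Risperidone in the NAc, with 4.48, 4.42, 4.52 and 3.82, lay below all 4 libraries of saline set I but within the range of all 8 saline libraries.

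Thbs1 was the weakest of the 5 genes, and on its summed FPKM the drug libraries separated from saline in no comparison. Saline ran from 0.138 to 0.424 FPKM in the NAc and from 0.231 to 0.418 in the PFCx, with medians of 0.27 and 0.37. The highest single library was venlafaxine replicate 1 in the PFCx at 0.89, whose group also held 0.706, 0.463 and 0.239. Ratios of drug to saline means ran from 0.841 for methamphetamine to 1.58 for ketamine in the NAc and from 1.005 for ketamine to 1.62 for venlafaxine in the PFCx. All 12 groups overlapped saline, also against the own saline set. The bounds that Cufflinks gives the main transcript of a saline library reached to either side by a median of 44.6% of the value in the NAc and 35.2% in the PFCx, so a difference of this size in 1 library was not detectable at this depth.

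On FPKM, Adamts1 lay above saline after mianserin in both tissues and after methamphetamine in the PFCx. In the NAc saline ran from 0.376 to 0.917 FPKM with a median of 0.578, and the mianserin libraries had 1.35, 1.08, 1.07 and 1.49. In the PFCx saline ran from 0.702 to 1.23 with a median of 0.906, mianserin libraries had 1.496, 1.92, 1.72 and 1.70, and methamphetamine libraries had 1.86, 1.53, 1.92 and 2.37. None of these 3 groups overlapped saline on FPKM. The ratios of means were 2.04 and 1.83 for mianserin and 2.05 for methamphetamine, with differences of 0.48 ± 0.09, 0.49 ± 0.09 and 0.59 ± 0.09 on the log2(FPKM + 1) scale. Against the own saline set they were 1.91, 2.13 and 1.80.

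Risperidone gave 1.28, 1.40, 1.13 and 2.11 FPKM of Adamts1 in the PFCx, where 3 of 4 libraries exceeded saline, and between 0.540 and 0.911 in the NAc, within the saline range. Methamphetamine in the NAc, between 0.630 and 1.01, had 1 library above saline. Haloperidol, venlafaxine and ketamine overlapped saline in both tissues, with ratios of means between 0.954 and 1.39. In the PFCx the order by mean was methamphetamine (1.92), mianserin (1.71), risperidone (1.48), haloperidol (1.01), venlafaxine (0.993), saline (0.935) and ketamine (0.892), and neighbours in that order overlapped, except that the lowest risperidone library (1.13) lay just above the highest haloperidol library (1.12).

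Tiparp lay above saline in the most comparisons. In the NAc the 8 saline libraries ran from 2.39 to 3.66 FPKM with a median of 3.05. Haloperidol libraries had 5.43, 5.70, 5.26 and 3.89 and mianserin libraries 4.20, 4.96, 5.05 and 5.12, all above saline, with ratios of means of 1.68 and 1.60. Risperidone (3.502, 5.22, 4.42 and 4.93) and methamphetamine (5.06, 4.68, 6.14 and 3.34) each had 3 libraries above all saline libraries, and all 4 above saline set I. Ketamine had 2 above and venlafaxine 0, with a mean of 2.71 against 3.02 in saline. On coverage per gigabase all 4 risperidone libraries (from 3.70) and all 4 methamphetamine libraries (from 3.63) lay above the 8 saline libraries, which reached 3.22.

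In the PFCx Tiparp ran from 1.53 to 2.49 FPKM after saline, with a median of 1.74. Mianserin libraries had 4.05, 3.97, 3.98 and 4.66, risperidone libraries 3.31, 3.79, 4.80 and 4.03 and methamphetamine libraries 3.29, 3.08, 3.10 and 2.53, so that none of the 3 groups overlapped saline. The ratios of means were 2.29, 2.19 and 1.65, and the differences 0.88 ± 0.10, 0.82 ± 0.10 and 0.51 ± 0.10 on the log2(FPKM + 1) scale. By mean the order was mianserin (4.17), risperidone (3.98), methamphetamine (3.00), ketamine (2.58), haloperidol (2.45), saline (1.82) and venlafaxine (1.71). Mianserin and risperidone overlapped, and all 4 libraries of each exceeded every methamphetamine library. Methamphetamine, ketamine and haloperidol overlapped each other, as did haloperidol and saline, and saline and venlafaxine. On coverage per gigabase the ratio to the own saline set was 3.46 for mianserin and 2.76 for risperidone in the PFCx, where FPKM gave 2.36 and 2.13, and 1.59 and 1.59 in the NAc.

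**Figure D2:**
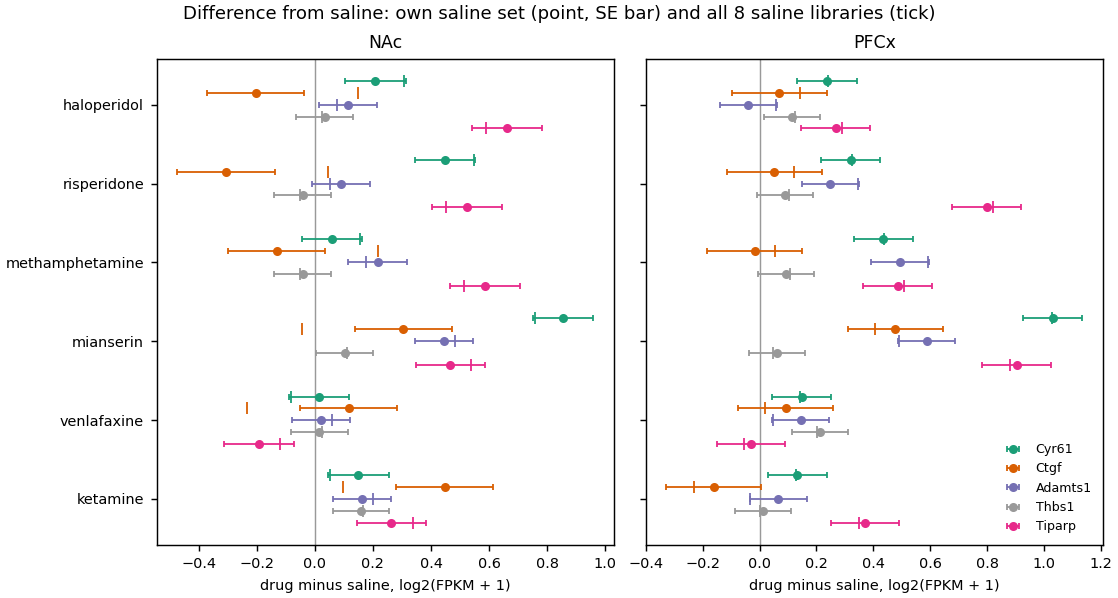
Difference between each drug and saline on the log2(FPKM + 1) scale (horizontal axes) for the 5 genes (colours) in the NAc (left) and PFCx (right). Points with bars are differences from the 4 libraries of its own saline set with the SE of the limma fit, and vertical ticks are differences from all 8 saline libraries. Cyr61 after mianserin reaches 1.03 in the PFCx, and the points and ticks of Ctgf in the NAc lie apart.

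With the own saline set as the control, 16 combinations had all 4 drug libraries above the 4 saline libraries, 8 of them for Tiparp, and 1 lay below, Ctgf after risperidone in the NAc. Over all genes and the 12 comparisons together 1.9% of the combinations lay above and 2.51% below in this way. On coverage per gigabase the number above was again 16, where the share over all genes was 1.91%. The own saline set is part of the 8 saline libraries, so a combination above all 8 lies above its own set by construction. Across the 12 own-set differences, Cyr61 and Adamts1 had a Pearson r of 0.80, Cyr61 and Tiparp 0.57, Adamts1 and Tiparp 0.57, and Thbs1 and Tiparp -0.30. These are descriptions over 12 values that share saline libraries within a set and tissue.

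The choice of the genes did not use the difference between the tissues, which was tested in the saline libraries (limma on log2(FPKM + 1), Benjamini-Hochberg adjustment over 37034 genes, n = 8 per tissue). Ctgf was higher in the NAc, with 4.34 ± 1.48 FPKM (SD) against 2.38 ± 0.45 in the PFCx, a PFCx minus NAc difference of -0.62 ± 0.14 (SE, adjusted p = 0.000206, two-sided exact permutation p = 0.00497). Tiparp was also higher in the NAc, with 3.02 ± 0.395 against 1.82 ± 0.317, and the tissues overlapped by the lowest NAc library (2.39) and the highest PFCx library (2.49) (-0.52 ± 0.08, adjusted p = 1.72e-06, exact p = 0.000311). Adamts1 was higher in the PFCx, with 0.935 ± 0.19 against 0.612 ± 0.197 (0.27 ± 0.07, adjusted p = 0.00245, exact p = 0.00606). Cyr61 (0.49 against 0.369 FPKM, adjusted p = 0.183, exact p = 0.116) and Thbs1 (0.287 against 0.354, adjusted p = 0.381, exact p = 0.112) did not pass. Over all genes 45.7% passed, 13749 higher in the PFCx and 3183 in the NAc, and the median difference was 0.10.

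The Tiparp difference alone passed under every alternative with the same direction. Within saline set II, where the ratio of coverage to FPKM is similar in both tissues, the differences were -0.34 for Ctgf (adjusted p = 0.175) and 0.13 for Adamts1 (adjusted p = 0.394), and neither passed. Within that set Ctgf passed on coverage per gigabase (-0.50, adjusted p = 0.0425) and Adamts1 did not (0.13, adjusted p = 0.365). On coverage per gigabase over all saline libraries Adamts1 did not pass either (0.10, adjusted p = 0.294), while Cyr61 passed as higher in the NAc (-0.22, adjusted p = 0.0162).

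The drug differences of the 5 genes are set side by side between the tissues without a test, since the genes were chosen on these differences. The PFCx minus NAc difference of the drug effects on the log2(FPKM + 1) scale was widest for Ctgf after mianserin (0.45 ± 0.23, SE). For Adamts1 it was widest after methamphetamine (0.41 ± 0.13), for Tiparp after risperidone (0.37 ± 0.15) and for Cyr61 after methamphetamine (0.28 ± 0.13). With the own saline set as the control the same 4 terms were 0.17, 0.28, 0.27 and 0.38. The widest term then changed for Ctgf, to ketamine (-0.61), and for Tiparp, to mianserin (0.44). For Adamts1 and Cyr61 it stayed with methamphetamine. The moderated F statistic of limma over the 6 drugs passed for 12.9% of all genes, and for the 5 genes it is no test.

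**Figure D3:**
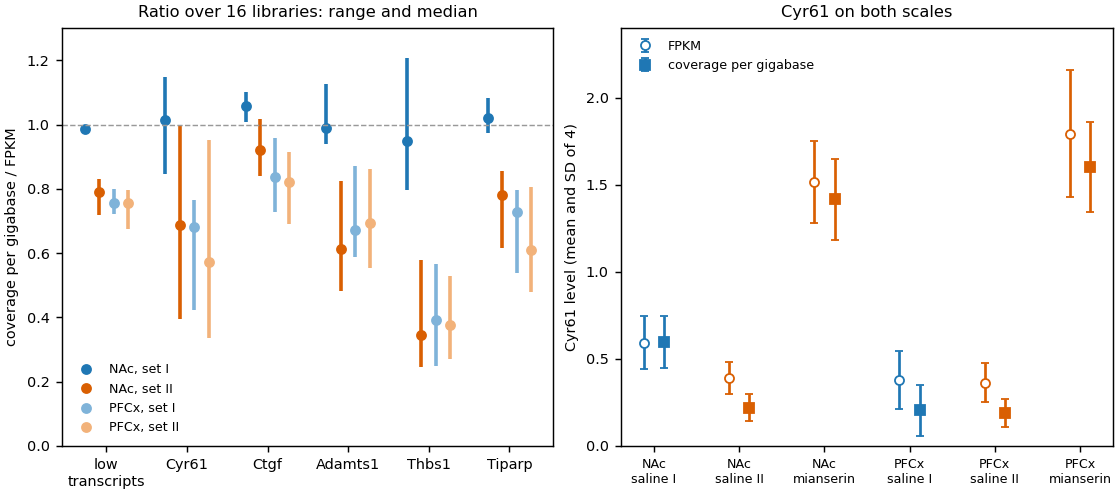
Left, ratio of coverage per gigabase to FPKM (vertical axis, no unit) for transcripts of 0.3 to 1 FPKM and for the 5 genes, as the range (line) and median (point) over the 16 libraries of each tissue and sample set. Right, Cyr61 as FPKM (open circles) and as coverage per gigabase (filled squares), mean and SD of 4 libraries. The ratio of the NAc libraries of set I is near 1 for every gene, and the Cyr61 saline means are lower as coverage than as FPKM in the other 3 blocks.

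The 2 saline sets differed for 1 of the 5 genes. In the NAc, Ctgf had 5.27, 5.90, 5.12 and 5.98 FPKM in saline set I and 4.46, 2.85, 3.01 and 2.16 in saline set II, without overlap. The set II minus set I difference was -0.70 ± 0.17 (SE, limma adjusted p = 0.0023, exact permutation p = 0.0286, the smallest that 4 against 4 libraries can give). In the NAc 20.8% of all genes passed between the saline sets, and in the PFCx 11%, where none of the 5 genes did. By coverage, Cyr61 (-0.39, adjusted p = 0.00427) and Thbs1 (-0.22, adjusted p = 0.0377) also passed as lower in NAc saline set II, with means of 0.597 and 0.22 for Cyr61 and of 0.283 and 0.096 for Thbs1 in sets I and II.

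Ctgf is known as a marker of neurons of the deepest cortical layer, and in the NAc libraries of set II its level moved with markers of cortical projection neurons. The 6 markers of that list summed to 50.9 to 69.3 FPKM in NAc saline set I and to 25.0 to 46.2 in set II, and Slc17a7 had 46.5 ± 6.36 and 23.6 ± 7.06 FPKM (SD, n = 4). Within the 16 NAc libraries of set II, Ctgf and the marker sum had a Pearson r of 0.82 and a Spearman rho of 0.84 (permutation p = 6e-05 and 0.00013, adjusted over 12 relations 0.00024 and 0.00052), and r was 0.80 without the 2 libraries farthest from the median sum. Within the 16 of set I, r was 0.44 and rho 0.38 (permutation p = 0.0852 and 0.144, adjusted 0.17 and 0.216), and r was 0.25 without 2 libraries. In the PFCx r was -0.12 in set I and 0.14 in set II (permutation p = 0.668 and 0.613, adjusted 0.729 for both). A list of 5 layer 6b markers was written after the Ctgf values were seen, and its relations are counted among the 12. As a description, it gave r of 0.53 and 0.83 in NAc sets I and II, and 0.32 and 0.70 without 2 libraries. In PFCx sets I and II it gave 0.15 and 0.35. After saline the projection neuron sum was higher in the PFCx (167.4 to 218.5 FPKM) than in the NAc (25.0 to 69.3), while Ctgf was higher in the NAc. The permutations shuffled libraries across the treatment groups of a set, so their p values also hold differences between those groups. In the NAc, for example, the ketamine libraries had medians of 4.71 FPKM for Ctgf and 62.4 for the projection neuron sum. Saline set II had 2.93 and 36.3. The part of such cells in the Ctgf values was not tested.

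**Figure D4:**
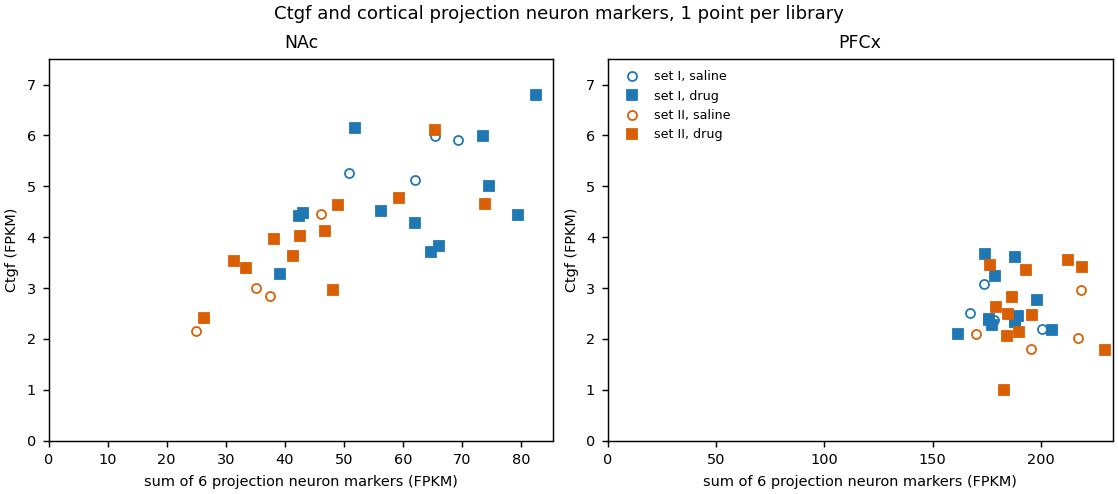
Ctgf (vertical axes, FPKM) against the summed level of 6 cortical projection neuron markers (horizontal axes, FPKM) in the 32 NAc (left) and 32 PFCx (right) libraries. Each point is a library, open circles are saline, filled squares drugs, blue is set I and orange set II. In the NAc libraries of set II Ctgf rises with the marker sum (r = 0.82), and saline set II holds the lowest values of both.

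Of the annotated transcripts, 1 protein-coding form carried most of each gene. It had 90.4% of the summed FPKM of Ctgf in the NAc and 81.6% in the PFCx (Ccn2-201), 71.6% and 62.5% of Adamts1 (Adamts1-201), 68.8% and 77.7% of Thbs1 (Thbs1-201) and 71.5% and 67.3% of Tiparp (Tiparp-201). These shares include reads that Cufflinks divided between overlapping forms, and the short forms were under 0.01 FPKM in up to 28 of 64 libraries. On Tiparp-201, the main form of 6 exons, haloperidol (1.85 to 2.27 FPKM), risperidone, methamphetamine and mianserin lay above all saline libraries in the PFCx (0.892 to 1.58). Tiparp-201 lay above saline in 8 of 12 comparisons, where 0.474% of all combinations of transcript and comparison did. Thbs1-201 lay above saline in the NAc after ketamine, with 0.290 to 0.330 against 0.097 to 0.245 FPKM. Ketamine belongs to set II, and low FPKM differ in scale between the NAc sets. As coverage per gigabase the gene sum after ketamine (0.078 to 0.376) lay within the range of NAc saline (0.067 to 0.398).

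Between the tissues after saline, tested over 86331 transcripts of which 22.4% passed, Tiparp-201 (-0.52 ± 0.06, adjusted p = 4.10e-09) and Ccn2-201 (-0.74 ± 0.15, adjusted p = 0.000167) were higher in the NAc. On FPKM, Thbs1-201 was higher in the PFCx (0.16 ± 0.05, adjusted p = 0.0072), while the gene sum did not pass. That sum also holds the retained-intron form ENSMUST00000142588, with saline means of 0.124 FPKM (NAc) and 0.054 (PFCx). The median ratio of Thbs1 coverage to FPKM was 0.949 in NAc set I and 0.344 in NAc set II. It was 0.391 and 0.376 in PFCx sets I and II. As coverage per gigabase the gene did not pass. Its difference was -0.072 over all saline libraries (limma adjusted p = 0.335) and 0.029 within saline set II (adjusted p = 0.836). Thbs1-201 is given on FPKM over all saline libraries only, so scale and tissue are not separated for it. For Adamts1, the shorter coding form ENSMUST00000125897 passed (0.24 ± 0.08, adjusted p = 0.0276) and Adamts1-201 did not (0.14 ± 0.05, adjusted p = 0.0529).

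Genes that share a family or pathway with the 5 were examined in 10 lists of 135 genes, of which 134 were tested against saline (limma, adjusted p under 0.05 over all genes). Of 1608 combinations of gene and comparison, 18 were called higher and 5 lower, 1.43%, against 1.13% over all genes. In the NAc the share of all genes called was 1.15% after haloperidol, 0.918% after risperidone, 2.31% after mianserin, 1.54% after venlafaxine, 0.265% after methamphetamine and 2.16% after ketamine. In the PFCx it was 1.52%, 2.22%, 0.883%, 0.0162%, 0.548% and 0.0351% in the same order. With the own saline set, 10 combinations were called higher and 7 lower, where over all genes 1163 of 444408 were called higher and 2359 lower.

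In the AHR pathway list of 11 genes, only Ahr, the receptor that Tiparp represses, was called, and it was lower. It fell by 0.51 ± 0.10 (SE) on the log2(FPKM + 1) scale after mianserin (adjusted p = 0.00139) and by 0.47 ± 0.10 after risperidone (adjusted p = 0.0047), both in the PFCx, where its saline mean was 2.30 FPKM. Against the own saline set the first passed (-0.54, adjusted p = 0.00205) and the second did not (-0.44, adjusted p = 0.0768), and on coverage per gigabase against that set both passed (adjusted p = 0.000261 and 0.0229). None of the AHR target enzymes of the list, Cyp1a1, Cyp1b1 and Nqo1 among them, was called in any of the 12 comparisons. Of the 14 other PARP genes, Parp1 was called once, higher after haloperidol in the NAc (0.26 ± 0.07, adjusted p = 0.0347), a call lost with the own saline set (adjusted p = 0.344).

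The other CCN and thrombospondin genes (8 tested) and the ADAMTS1 substrates and TIMP inhibitors (8 tested) held no call in either direction against all saline libraries, and 1 (higher) and 0 against the own saline set. Among 18 other ADAMTS genes, Adamts2, a procollagen N-proteinase, rose after risperidone in the PFCx (0.71 ± 0.13, adjusted p = 0.000926, own saline set 0.76 and 0.00491). Of 20 YAP-TAZ-TEAD target genes, 5 combinations were called, all higher. They were Nt5e, an ecto-nucleotidase, in the NAc after risperidone (0.39 ± 0.08, adjusted p = 0.00293) and mianserin (0.38 ± 0.08, adjusted p = 0.00376), F3, tissue factor, in the NAc after mianserin (adjusted p = 0.0495) and in the PFCx after risperidone (adjusted p = 0.0498), and Fjx1 in the NAc after haloperidol (adjusted p = 0.0192). Fjx1 is named because the calls are few. Against the own saline set, of these 5 calls the Nt5e call after risperidone passed (adjusted p = 0.0147).

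The receptor list of 14 genes held 5 calls, all higher. Sdc4, a heparan sulfate proteoglycan that binds matrix proteins, accounted for 4, after haloperidol and risperidone in both tissues, with differences of 0.44 to 0.52 and adjusted p values from 0.0128 to 0.0336, and with the own saline set none of the 4 passed (adjusted p from 0.166 to 0.498). Cacna2d1, the calcium channel subunit to which thrombospondins bind, was higher after ketamine in the NAc (0.29 ± 0.07, adjusted p = 0.0175, own saline set 0.34 and 0.0138). In the TGF-beta list of 10 genes, Skil, a SMAD co-repressor that TGF-beta itself induces, was called higher in 5 comparisons, with haloperidol and mianserin in both tissues and risperidone in the NAc, by 0.24 to 0.31. With the own saline set Skil passed after mianserin in the PFCx (0.28, adjusted p = 0.032). Tgfb1 was called lower after haloperidol and risperidone in the PFCx (-0.78 and -0.80), calls that the own saline set did not give (adjusted p = 0.818 and 0.788). With that control Tgfb1 was called lower instead after the 3 drugs of set II in the PFCx, by -0.97 after mianserin, -1.09 after venlafaxine and -1.04 after ketamine (adjusted p = 3.95e-05, 1.265e-05 and 1.76e-05). Ltbp1, a binding protein of latent TGF-beta named after its values were seen, was called lower in the same 3 comparisons (-0.73, -0.68 and -0.70, adjusted p = 0.00181, 0.00753 and 0.00367). Together with Ahr after mianserin these are the 7 lower calls with that control. The Tgfb1 and Ltbp1 calls all rest on the same 4 PFCx libraries of saline set II. Haloperidol in the PFCx differed in Tgfb1 by -0.78 from all saline libraries and by -0.23 from saline set I. Saline set II was thus the higher saline set for Tgfb1 there. The part of the saline sets in these calls was not tested. Among the 19 Hippo and SRF regulators Mkl2, a co-activator of SRF, was called once (0.17 ± 0.05 after haloperidol in the PFCx, adjusted p = 0.0495), and among the 12 SRF-MRTF target genes tested Actb was called once, lower after venlafaxine in the NAc (-0.57, adjusted p = 0.0499), neither with the own saline set (adjusted p = 0.339 and 1).

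The genes with the most similar pattern were sought among 16289 genes by Pearson r over the 12 own-set differences, as a description. For Tiparp they were Arl4d (0.92), Sik1 (0.90) and Per1 (0.88), of which Sik1, a salt-inducible kinase, and Per1, a clock gene, are known targets of CREB. For Adamts1 they were Hes1 (0.87), a transcriptional repressor of the Notch pathway, Gm37899 (0.85) and Rpl22l1 (0.82), and for Cyr61 Gm37728 (0.92), Usp36 (0.87) and Gm42607 (0.87). Ctgf was most like 4930453N24Rik (0.93), Tspyl4 (0.91) and Gm12346 (0.90), and Thbs1 most like Gm10337 (0.89), Cav1 (0.89), a protein of caveolae in vessel cells, and Pbxip1 (0.87). Of these 15 genes 5 stayed among the first 3 when all 8 saline libraries were the control, which were Gm37728 and Usp36 for Cyr61, Hes1 for Adamts1, Cav1 for Thbs1 and Per1 for Tiparp, and 4 did with Spearman's rho.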

How the data were processed

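Total RNA of the NAc and PFCx was depleted of ribosomal RNA and sequenced as single-end Ion Torrent reads, 32 libraries per tissue. Per the study's methods and the submitters' processing notes, the authors aligned reads with TopHat2 2.0.1 followed by Tmap and deposited the FPKM that Cufflinks 2.2.1 estimated for Ensembl transcripts on mm10. The deposited tables also hold read coverage and confidence bounds of FPKM, and no counts. FPKM were summed per gene, and genes with a mean of at least 0.1 in either tissue (37034) were fitted as log2(FPKM + 1) with limma 3.58.1 in R 4.3.3 in 1 model of 14 groups, at an adjusted p under 0.05. Exact permutation tests and figures used Python 3.11.15, numpy 2.4.6 and matplotlib 3.10.9. The aligned bases of a library were estimated by dividing coverage by FPKM for transcripts with 2000 or more bases and 5 or more FPKM. Groups came from the labels. The sample set of each drug was read from the number of NAc transcripts above 0, between 85287 and 87827 in set I and between 107099 and 110556 in set II.

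The members and lists were chosen with earlier results of these data known. The named genes are the members, 3 genes of most similar pattern each, and up to 2 genes per related list called most often. The scripts were checked on simulated data. Coverage per gigabase was added as an alternative after seeing the data. The sources give the labels' replicate numbers but no pairing. Transcript structures came from GENCODE vM21 and promoters from RefSeq. Acta1 of the SRF-MRTF list was not analysed here.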

Additional observations from a re-analysis of the deposited data

Results flagged for a closer look

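In 5 of 70 groups of libraries, 1 library stood apart from the others of its group by Dixon's test, where chance flags about 1 in 20 groups. Ctgf had 3.82 FPKM in risperidone replicate 4 of the NAc, against 4.42 to 4.52 in the other libraries of the group, and 3.67 in risperidone replicate 3 of the PFCx, against 2.27 to 2.44. Tiparp had 4.20 in mianserin replicate 1 of the NAc, against 4.96 to 5.12, and 4.66 in mianserin replicate 4 of the PFCx, against 3.97 to 4.05. In the PFCx saline libraries Tiparp had 2.49 in set I replicate 4, against 1.53 to 1.95 in the other saline libraries.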

How the results depend on the processing

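The number of combinations above all 8 saline libraries was 13, and 13 to 15 when single libraries were left out. With the own saline set it was 16, with saline set I 16, with saline set II 17, on coverage 14 and on coverage with the own saline set 16, and 13 under the other 7 alternatives. Fewer saline or drug libraries can only keep or raise this number. On FPKM the leave-out and saline set counts thus could not fall below 13. On coverage, Adamts1 after mianserin in the NAc no longer lay above all 8 saline libraries. Tiparp after risperidone and after methamphetamine in the NAc did so only on coverage. A changed pseudocount, filter on low values, replicate block or variance trend leaves the compared FPKM as they were, so 13 is fixed there. The Tiparp tissue difference passed under all 11 alternatives. Ctgf (-0.34) and Adamts1 (0.13) did not pass with saline set II alone, and on coverage per gigabase, chosen after seeing the data, Cyr61 passed (-0.22), Adamts1 did not (0.10, and 0.13 with saline set II), and Thbs1 reversed (-0.072). The drug by tissue F statistic uses the drug differences on which the genes were chosen, so its values are descriptions and no test of these genes. Against adjusted p values of 0.0552 for Cyr61, 0.0142 for Adamts1 and 0.0365 for Tiparp, that of Cyr61 fell below 0.05 after rescaling to the 75th percentile (adjusted p = 0.0409), with saline set I (0.0362), with saline set II (0.0458) and on coverage (0.0134). That of Adamts1 rose above it with the own saline set (0.554) and on coverage (0.166, own saline set 0.315), and that of Tiparp with a mean of at least 1 FPKM (0.0868) and the own saline set (0.18). Cyr61 and Thbs1 could not be fitted at a mean of at least 1. The cause of these changes was not tested.

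The drug by tissue F is no test of these genes, and its values are given here as descriptions. Leaving out single libraries gave it adjusted p values of 0.0215 to 0.114 for Cyr61, below 0.05 in 10 of 64 cases. For Tiparp they ran from 0.0153 to 0.0732, above 0.05 in 11. These were the cases without NAc haloperidol replicates 1, 2 or 3, mianserin replicate 1 or risperidone replicates 1 or 3, or without PFCx haloperidol replicates 2 or 4, mianserin replicate 4 or risperidone replicates 3 or 4. The saline set differences changed sign within -0.039 to 0.069 for Thbs1 in the NAc, -0.058 to 0.017 for Thbs1, -0.073 to 0.065 for Cyr61 and -0.11 to 0.050 for Tiparp in the PFCx. Rescaling to the 75th percentile reversed Cyr61 (0.0069) and Tiparp (0.0038) in the PFCx. Coverage reversed Adamts1 (-0.18), Thbs1 (-0.22) and Tiparp (-0.15) in the NAc and made Cyr61 pass there (-0.39).

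The calls in related lists numbered 38 with a pseudocount of 0.1, 121 with saline set I, 139 with saline set II and 36 on coverage, against 23. Of the 15 genes of most similar pattern 4 remained with Spearman's rho and 5 with all 8 saline libraries. Over all genes the 12 drug comparisons gave 5021 calls (3192 to 42412), the tissue contrast 16932 (8078 to 18851), the interaction 4766 (272 to 7733) and the NAc saline sets 7696 (4126 to 10855).

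The replicate numbers were not shown to pair libraries. Same-numbered libraries had a mean correlation of deviations of 0.096 within the NAc, 0.10 within the PFCx and 0.014 between tissues, with pairs down to -0.38. With the replicate block the interaction p was 0.015 for Adamts1, 0.0382 for Tiparp and 0.0661 for Cyr61, 24 related calls were made, and no call on the 5 genes changed.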
